A study of Mus musculus with 3 samples.

Results

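Remote intergenic peaks of Ad4BP/SF-1 are the peaks that lie in the long stretches between protein-coding genes. A peak was taken as remote when its centre lay in no protein-coding gene body of GENCODE M21 on mm10 and more than 50 kb from the nearest start of a protein-coding transcript. The rule uses position only, and it chose 760 of the 5721 peaks of the vehicle list and 661 of the 4025 peaks of the cAMP list. The peaks came from Leydig cells of 9-week-old male ICR mice. The cells of pooled testes were separated on a Percoll gradient, cultured on collagen and treated with vehicle or cAMP, whose dose the labels do not give, and Ad4BP/SF-1 was immunoprecipitated from them. Each condition had 1 library and no replicate, and the input DNA was not used here. The purity of the cells cannot be measured from lists of peaks. Sequencing depth cannot be read from the lists, and a difference between the lists cannot be told apart from a difference between the libraries. The 2 lists were therefore kept apart, and peaks of a list were compared with other peaks of the same list.

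Ad4BP/SF-1, the product of *Nr5a1*, is an orphan nuclear receptor of the gonads, the adrenal cortex and the pituitary. It binds DNA as a monomer, and its recognition sequence is longer than the hexamer that most nuclear receptors use because bases before the hexamer are contacted too. In steroidogenic cells it acts on genes of hormone synthesis from promoters and from distal elements, and distal elements of developmental genes often lie in long intergenic stretches far from the gene they act on. The gene nearest to such an element need not be its target. Flanking genes are named below only to say where a peak is.

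Sequences around the consensus show what a strong remote peak looks like. The consensus searched for on both strands was TCAAGGTC, TCAAGGCC, CCAAGGTC or CCAAGGCC, and its copies are in capitals below. Each window holds 60 bases, reads 5′ to 3′ on the strand that carries the copy, and was read from GRCm38.p6, the assembly called mm10. Windows are named by the protein-coding genes on the left and right of the peak. The first set comes from the 4 remote peaks in both lists that held the consensus and had the highest lower score, other than the ribosomal RNA peak described below.
Wnt7b to Ppara, chr15:85670092-85670151, minus strand: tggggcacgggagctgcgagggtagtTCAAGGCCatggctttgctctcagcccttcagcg
Cstad to 1700001O22Rik, chr2:30685239-30685298, plus strand: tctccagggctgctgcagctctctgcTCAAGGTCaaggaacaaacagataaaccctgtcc
Zbtb10 to Zfp704, chr3:9334350-9334409, minus strand: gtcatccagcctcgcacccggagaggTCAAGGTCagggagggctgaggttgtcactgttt
Plcb1 to Plcb4, chr2:135559646-135559705, minus strand: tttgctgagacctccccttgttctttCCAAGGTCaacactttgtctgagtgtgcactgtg
The 4 highest-scoring remote peaks with the consensus in the vehicle list alone gave the next set.
Cntnap2 to Cul1, chr6:47338287-47338346, minus strand: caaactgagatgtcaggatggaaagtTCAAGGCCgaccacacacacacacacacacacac
Adamts3 to Cox18, chr5:90029856-90029915, minus strand: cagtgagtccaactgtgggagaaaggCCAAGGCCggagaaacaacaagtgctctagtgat
Mast4 to Srek1, chr13:103493788-103493847, minus strand: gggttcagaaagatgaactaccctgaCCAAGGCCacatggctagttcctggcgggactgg
Pdgfra to Kit, chr5:75256377-75256436, minus strand: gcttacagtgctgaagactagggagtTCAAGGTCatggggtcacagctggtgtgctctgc
The 4 highest-scoring ones in the cAMP list alone held these copies.
Ywhaq to Gm10330, chr12:21478931-21478990, plus strand: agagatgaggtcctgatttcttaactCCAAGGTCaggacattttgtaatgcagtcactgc
Ccdc91 to Far2, chr6:147799923-147799982, minus strand: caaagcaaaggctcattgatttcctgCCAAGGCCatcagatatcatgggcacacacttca
Klf14 to Mkln1, chr6:31191157-31191216, plus strand: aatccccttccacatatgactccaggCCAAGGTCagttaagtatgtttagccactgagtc
Klf14 to Mkln1, chr6:31068958-31069017, plus strand: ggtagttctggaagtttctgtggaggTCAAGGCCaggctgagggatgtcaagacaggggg
The highest-scoring remote peak without a consensus copy and without an overlap is shown by its 60 central bases on the plus strand, first for the vehicle list and then for the cAMP list.
Cdc42ep3 to Rmdn2, chr17:79454809-79454868, plus strand: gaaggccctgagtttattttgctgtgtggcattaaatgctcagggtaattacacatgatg
Thbs2 to Wdr27, chr17:14816150-14816209, plus strand: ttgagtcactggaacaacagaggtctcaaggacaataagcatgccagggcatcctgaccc

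The remote share was 13.3% (95% exact Clopper-Pearson interval 12.4% to 14.2%) in the vehicle list and 16.4% (15.3% to 17.6%) in the cAMP list. These shares are set side by side with no test, since each condition had 1 library. Among peaks that scored 75 or more they were 12.2% and 12.3%. Differences between peaks of a list are given in percentage points with 95% Newcombe intervals. All intervals given here cover counting error only and say nothing about replicate error. The rule was met by 40.6% of the sequenced genome, while 39.2% lay in protein-coding gene bodies, so remote sequence held fewer peaks than its size. Per Mb, remote sequence held 0.707 vehicle peaks and the rest of the genome 3.15. For cAMP these densities were 0.615 and 2.14. Among chromosomes with over 100 peaks, the remote share of vehicle peaks ran from 6.67% on chromosome 19 to 23.2% on chromosome 13, and that of cAMP peaks from 4.20% on chromosome 19 to 28.0% on chromosome 12.

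Distances to the nearest start had a median of 116 kb in the vehicle list, with quartiles of 74.8 and 210.1 kb, and of 136 kb in the cAMP list, with quartiles of 82.2 and 271 kb. More than 200 kb from any start lay 200 vehicle peaks, or 26.3%, and 241 cAMP peaks, or 36.5%. Upstream of their nearest start lay 407 vehicle peaks, or 53.6%, and 345 cAMP peaks, or 52.2%, so the peaks were split about evenly between the sides of the gene. A start can be remote while a gene's 3′ end is close. Within 10 kb of a gene body lay 32 peaks of each list. Just beyond it lay vehicle peaks at 50124 bp from *Pank3* (score 57.8) and 50147 bp from *Mrps22* (59.99), and cAMP peaks at 50026 bp from *Cux1* (64.4) and 50102 bp from *Hhex* (89.3). Just within it, and so left out, were vehicle peaks at 49910 bp from *Gm2310* (85.9) and 49813 bp from *Cpeb4* (134) and cAMP peaks at 49601 bp from *Med13l* (69.1) and 49596 bp from *A830005F24Rik* (62.3).

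The density of intergenic peaks fell with each step away from a start. In the vehicle list it was 1.47 peaks per Mb (exact Poisson interval 1.31 to 1.64) at 50 to 100 kb, 0.944 at 100 to 200 kb, 0.493 at 200 to 500 kb and 0.116 (0.0781 to 0.165) beyond 500 kb. For cAMP it was 1.07 (0.935 to 1.21), 0.737, 0.540 and 0.212 (0.160 to 0.276) in the same order. The vehicle list held more peaks per Mb up to 200 kb, whereas beyond 500 kb it held 30 peaks and the cAMP list 55. The cAMP list was the shorter of the lists and held the larger number of peaks there.

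**Figure D1:**
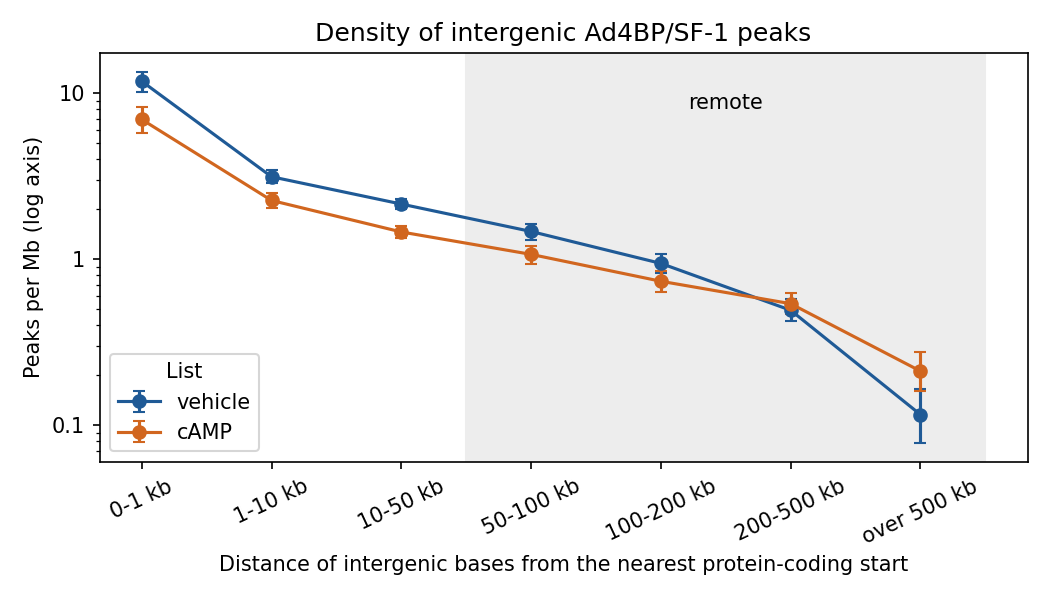
Peaks per Mb of intergenic sequence (log axis) against distance from the nearest protein-coding start, for the vehicle and the cAMP list. Bars are 95% exact Poisson intervals and the grey field marks remote sequence. Both lines fall at every step, and the cAMP line passes above the vehicle line beyond 200 kb.

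Each peak carries the score that the authors' peak caller MACS gave it. The score is the negative log10 of a p-value, multiplied by 10, and grows with depth. No peak of either list scored below 50. Remote vehicle peaks had a median score of 70.2 (quartiles 57.6 and 96), and the other vehicle peaks 72.8 (58.9 and 105). Remote cAMP peaks had a median of 60.5 (54.1 and 82.2), and the other cAMP peaks 69.5 (57.3 and 98.7). Above the median of their whole list scored 46.4% of the remote vehicle peaks and 50.5% of the others, a difference of -4.09 points (-7.87 to -0.270). For cAMP the shares were 36.8% and 52.6%, a difference of -15.8 points (-19.8 to -11.7). Against intergenic peaks 1 to 50 kb from a start, the vehicle difference was -3.04 points (-7.51 to 1.46) and its interval included 0, whereas the cAMP difference was -16.2 points (-21.1 to -11.2). Remote peaks thus scored lower than other peaks in the cAMP list, and in the vehicle list the gap was small. Under 75 scored 462 remote cAMP peaks, or 69.9%, beside 57.7% of the other cAMP peaks (difference 12.2, 8.23 to 16.0). Of the remote vehicle peaks 435 scored under 75, or 57.2%, beside 52.8% of the others (difference 4.42, 0.618 to 8.17).

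The consensus was found in 534 remote vehicle peaks, or 70.3% (66.9% to 73.5%), beside 80.4% of all vehicle peaks. It was found in 366 remote cAMP peaks, or 55.4% (51.5% to 59.2%), beside 77.1% of all cAMP peaks. Against the other peaks of the list, the remote share was lower by 11.7 points in the vehicle list (difference -11.7, -15.2 to -8.35) and by 26 points in the cAMP list (difference -26, -30.0 to -22.0). Against intergenic peaks 1 to 50 kb from a start the differences were -8.88 (-12.9 to -4.97) and -23.4 points (-28.0 to -18.8), and against intronic peaks -13.4 (-17.0 to -9.97) and -26.9 points (-31.1 to -22.8). Both lists kept far more consensus than their surroundings. In windows of the same width 5 kb to either side of a remote peak that held no peak, the share was 9.44% for vehicle and 8.08% for cAMP.

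The share was lowest in the farthest class of each list. Among cAMP peaks it was 64.7% (58.2% to 70.8%) at 50 to 100 kb, 58.4% at 100 to 200 kb, 93 of 186 at 200 to 500 kb and 23.6% (13.2% to 37.0%) beyond 500 kb. Among vehicle peaks it was 74.9% (69.8% to 79.6%), 67.5%, 67.6% and 56.7% (37.4% to 74.5%). Peaks beyond 200 kb held the consensus less often than those at 50 to 200 kb in the cAMP list, by -17.9 points (-25.5 to -10). The vehicle difference was -5.79 points, and its interval of -13.5 to 1.53 included 0. Among peaks under 75 the difference was -14.4 points (-23.2 to -5.22) in the cAMP list and -13.2 points (-23.6 to -2.90) in the vehicle list. Among peaks of 75 and over it was -9.88 (-24.4 to 2.56) and 3.99 points (-6.67 to 12.9), and both intervals included 0.

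Peaks with an overlap are largely the same sites in both lists, and 252 of the 255 pairs described below had the consensus in both partners or in neither. The consensus was in 204 of 255, or 80.0%, for vehicle and 205 of 255, or 80.4%, for cAMP, beside 1721 of 1912 (difference -10, -15.5 to -5.34) and 89.8% of the other overlapping peaks (difference -9.41, -14.9 to -4.77). Without an overlap, 330 of 505 vehicle peaks held it, or 65.3%, beside 76.9% of the other vehicle peaks without one (difference -11.5, -16.0 to -7.23). By score, this vehicle difference was -14.9 points (-20.4 to -9.59) under 75, -3.27 (-13.0 to 4.72) at 75 to 100 and -1.30 (-14.6 to 8.13) at 100 and over, so without an overlap it was detectable under 75 alone. With an overlap the vehicle difference was -4.81 points (-14.9 to 2.56) under 75, -10.6 (-23.5 to -1.19) at 75 to 100 and -13.2 (-21.4 to -6.56) at 100 and over. The cAMP difference with an overlap was -7.90 (-16.9 to -0.605), -19.4 (-33.1 to -8.62) and -5.60 points (-13.9 to 0.0000143) in the same score ranges. Of the cAMP peaks without one, 161 of 406 held it, or 39.7%, beside 70.2% of the others, a difference of -30.6 points (-35.8 to -25.2). Most of these cAMP peaks scored under 75. Of the 354 remote cAMP peaks under 75 without an overlap, 123 held the consensus, or 34.7%, beside 66.2% of the other peaks of that kind (difference -31.5, -37.0 to -25.7). The same difference was -8.73 points (-24.8 to 3.72) at 75 to 100 and -22.2 (-49.4 to -2.60) at 100 and over, where 13 remote peaks had no overlap. Whether or not they had an overlap, 85.3% of the remote cAMP peaks of 100 and over held it, beside 92.9% (difference -7.59, -15.6 to -1.81), and 79.2% of the remote vehicle peaks, beside 88.6% (difference -9.38, -16.2 to -3.71).

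**Figure D2:**
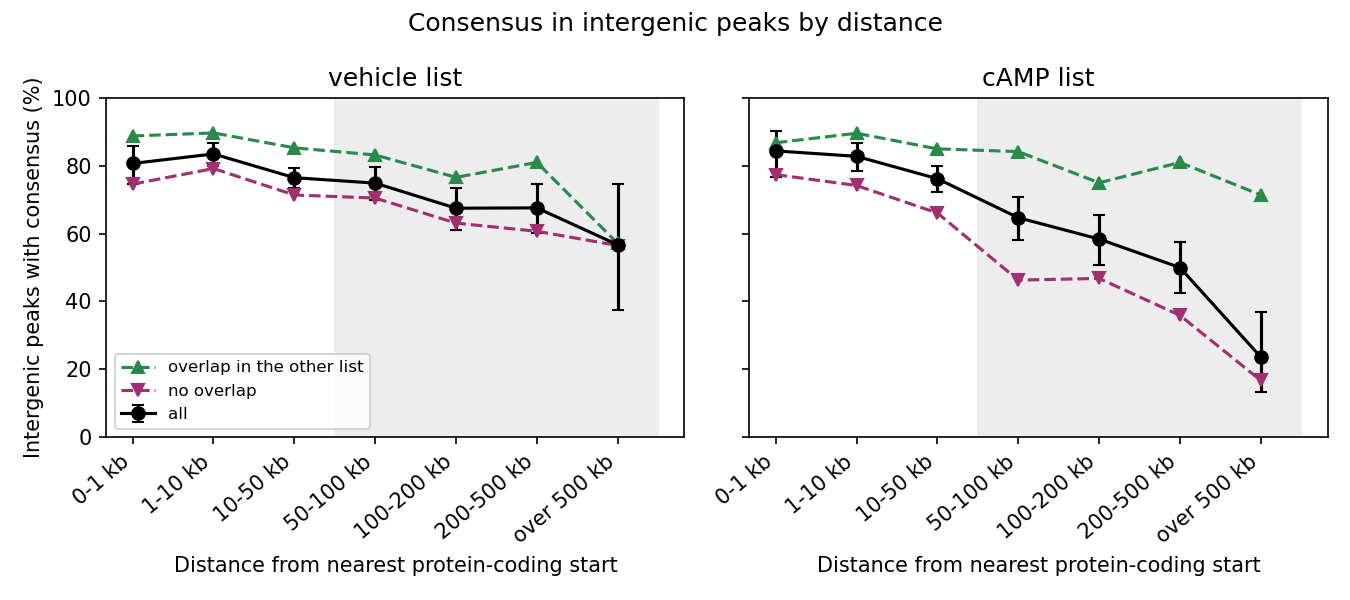
Share of intergenic peaks that hold the consensus (%) by distance from the nearest protein-coding start, for the vehicle list (left) and the cAMP list (right). Black points are all peaks with 95% exact intervals, green triangles the peaks with an overlap in the other list and purple triangles those without, and the grey field marks remote peaks. The purple cAMP line falls to 16.7% beyond 500 kb, where the green point rests on 7 peaks.

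Splitting the remote peaks by overlap and consensus gave 4 kinds. In the vehicle list the largest kind was the 330 peaks with the consensus and no overlap, or 43.4%, beside 46.7% of all vehicle peaks, with a median score of 66.4. For cAMP it was the 245 peaks with neither, or 37.1%, beside 16.8% of all cAMP peaks. These had a median score of 55.4, a median distance of 199 kb from a start and a highest score of 164, and 8.98% of them held the 7-letter core alone, CAAGGTC or CAAGGCC. The 204 vehicle and 205 cAMP peaks with both had median scores of 97.5 and 84.1 and median distances of 108 kb in each list.

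Each of the 4 spellings was found, with TCAAGGTC the most frequent. Of the 705 copies in remote vehicle peaks, 41.3% were TCAAGGTC, 24.5% TCAAGGCC, 20.6% CCAAGGTC and 13.6% CCAAGGCC. The 469 copies in remote cAMP peaks divided into 41.6%, 24.7%, 19.0% and 14.7%. The base after the copy was A in 78.6% of the vehicle and 82.7% of the cAMP copies. From the centre of a remote vehicle peak to its nearest copy the median was 35.5 bp, as in the other vehicle peaks. For cAMP it was 38.5 bp in remote peaks and 35.5 bp in the others. Within 100 bp of the centre lay the nearest copy of 92.5% of the remote vehicle peaks that had one and of 89.9% of the cAMP peaks. More than 1 copy was held by 152 of the 760 remote vehicle peaks, or 20%, beside 20.9% of the other vehicle peaks, and by 91 remote cAMP peaks, or 13.8%, beside 20.5% of the other cAMP peaks. Neighbouring copies ran on the same strand in 63.2% of 171 and 63.1% of 103 pairs.

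**Figure D3:**
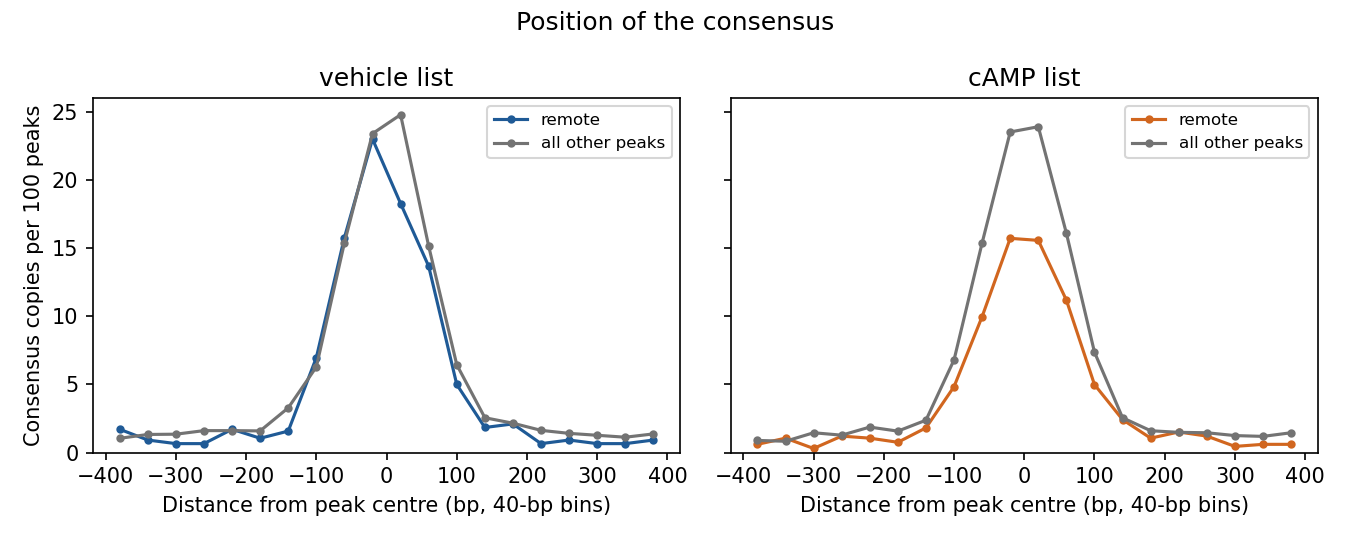
Copies of the consensus per 100 peaks against distance from the peak centre (bp, bins of 40 bp) for remote peaks (colour) and all other peaks (grey) of the vehicle list (left) and the cAMP list (right). Copies gather at the centre in every curve, and the remote cAMP curve is lower than the grey curve there but is centred alike.

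Other recognition sequences differed less. TGANTCA, the element of AP-1 (Fos and Jun dimers), was in 25.5% of the remote vehicle peaks and 20.9% of the other vehicle peaks, a difference of 4.58 points (1.4 to 7.99). Against intergenic peaks at 1 to 50 kb that difference was 1.26 points (-2.59 to 5.21), and against intronic peaks 4.78 points (1.43 to 8.31). The cAMP shares were 24.2% and 23.0%, a difference of 1.23 points (-2.21 to 4.91). The windows beside the remote peaks held it in 14.7% and 14.3%. AGATAA, the element of GATA factors, was in 29.7% of the remote vehicle peaks and 25.3% of the others (difference 4.44, 1.07 to 7.99), and in 25.1% and 23.4% of the cAMP peaks (1.75, -1.73 to 5.47). Against intergenic peaks at 1 to 50 kb the vehicle difference was 2.06 points (-1.98 to 6.18), and against intronic peaks 2.56 points (-1.0 to 6.27). The windows held it in 25.5% and 28.8%, below the share in remote vehicle peaks and above that in remote cAMP peaks. TGACGTCA, the cAMP response element to which CREB binds, was in 8 remote peaks of each list, or 1.05% and 1.21%, beside 0.133% and 0.229% of the windows. Its difference from the other peaks was 0.408 points (-0.174 to 1.44) for vehicle and 0.527 points (-0.159 to 1.71) for cAMP. From intronic peaks it differed by 0.695 (0.0971 to 1.72) and 0.850 points (0.143 to 2.02), and from intergenic peaks at 1 to 50 kb by 0.339 (-0.482 to 1.4) and -0.0426 points (-1.19 to 1.24). AAAGGTCA, the element of the NR4A receptors, was in 38 vehicle and 28 cAMP peaks, where it can overlap a consensus copy, at shares of 5% and 4.24%, beside 3.75% and 3.39% of the other peaks and 3.19% and 3.35% of the windows. Its difference from the other peaks was 1.25 (-0.200 to 3.11) and 0.847 points (-0.604 to 2.75), and from intronic peaks 1.75 (0.231 to 3.63) and 0.892 points (-0.677 to 2.84). From intergenic peaks at 1 to 50 kb the difference was 0.876 (-0.949 to 2.91) and 0.591 points (-1.35 to 2.69). The core of the CTCF motif was in 5 and 2 peaks, or 0.658% and 0.303%, beside 0.826% and 0.684% of the other peaks and 0.465% and 0.381% of the windows. For each list 30 differences between classes of peaks were computed, besides those by score, overlap, distance and processing, and no interval is adjusted for their number.

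Remote peaks lay in sequence with little repeat. Of the remote bases of the genome, 43.1% are masked as repeat, but the median remote vehicle peak held 10.7% repeat and the median remote cAMP peak 10.3%. The windows beside them had medians of 20.2% and 20.1%, and the other peaks of the lists 14.5% and 15.5%. Only reads that mapped to a single position were used for the peaks, and the part of this in the repeat values was not tested. Their median GC content was 47.1% and 46.3%, beside 43.9% and 43.1% in the windows. A width over 1500 bp was reached by 4 vehicle and 2 cAMP peaks, which included the peak inside *Gm26917*, at a ribosomal RNA repeat on chromosome 17 between *Esp15* and *Esp38*. That peak had the highest remote score of both lists (709 and 592).

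A cAMP peak overlapped 255 of the 760 remote vehicle peaks, or 33.6% (30.2% to 37.0%), beside 37.9% of all vehicle peaks. A vehicle peak overlapped 255 of the 661 remote cAMP peaks, or 38.6% (34.8% to 42.4%), beside 53.8% of all cAMP peaks. The difference from the other peaks was -4.99 points (-8.53 to -1.30) for vehicle and -18.3 points (-22.3 to -14.1) for cAMP. At scores of 100 and over, the gap was not detectable. Of the remote vehicle peaks of that score 70.5% overlapped any cAMP peak, beside 67.6% of the others (difference 2.94, -4.65 to 9.72), and of the remote cAMP peaks 88.1%, beside 88.6% (difference -0.557, -8.24 to 4.81).

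The overlaps made 255 pairs, and every partner was remote in its own list as well. Their centres lay a median of 43.0 bp apart. The vehicle score was the higher in 169 pairs, or 66.3%, with medians of 98.0 for vehicle and 82.7 for cAMP. Over all peaks of the lists the medians were 72.4 and 67.8, so the vehicle list scored higher as a whole. Because depth is unknown, these scores rank peaks within a list, and a ratio of scores is not a ratio of binding. The vehicle score was at least 2 times the cAMP score in 39 pairs and the reverse held in 9. By ratio of scores, the most unequal pair towards vehicle, 192 against 52.3, was between *Barx2*, a homeobox factor, and *Arhgap32*. The next were 382 against 118 between *Lnx1* and *Chic2* and 254 against 83.1 between *Tshz3*, a zinc finger factor, and *Zfp536*. Towards cAMP the highest ratio was between *Rwdd4a* and *Ing2* (52.6 in the vehicle and 224 in the cAMP list), followed by a peak inside the lincRNA *Gm47896* between *Ctnna3* and *Reep3* (75.5 and 288) and a peak between *Fam43a* and *Xxylt1* (63.8 and 203).

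**Figure D4:**
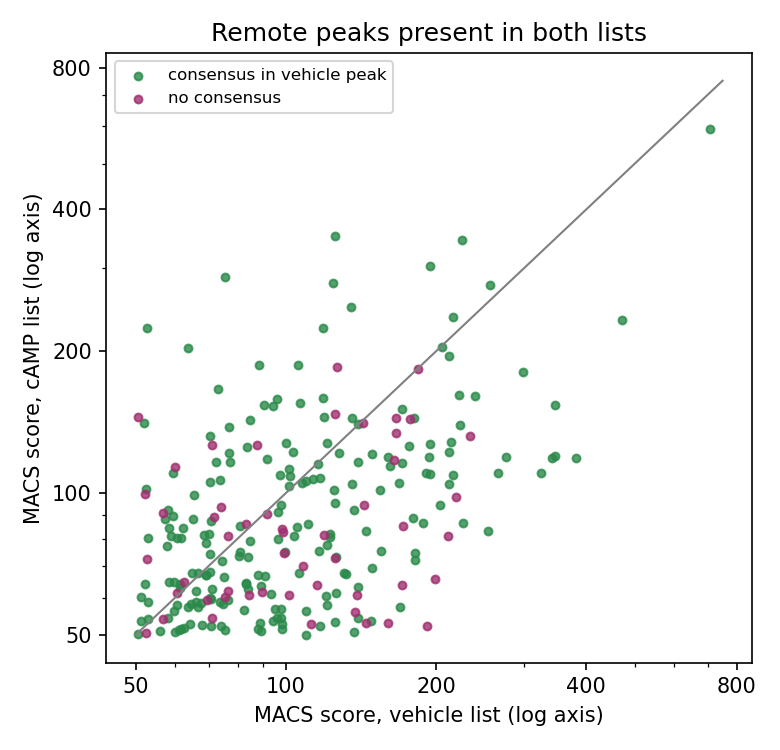
MACS score in the vehicle list against that in the cAMP list (both log axes) for the 255 pairs of overlapping remote peaks. Green points hold the consensus in the vehicle peak, purple points do not, and the line marks equal scores. Below the line lie 169 pairs, where the vehicle score was higher.

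Strong remote peaks were found beside genes of varied function. Between *Cstad* and *1700001O22Rik* on chromosome 2, inside the lincRNA *9330198N18Rik*, a peak had the second highest remote score of the vehicle list (471) and scored 233 for cAMP. At 65.0 kb before *Ppara*, the fatty acid receptor PPARα, and inside the noncoding *Lncppara*, a peak scored 256 in the vehicle and 277 in the cAMP list and held 2 consensus copies and TGACGTCA. Peaks of high vehicle score also lay between *Smad3*, a transducer of TGF-β and activin signals, and *Smad6*, an inhibitor of BMP signals (346, and 154 in the cAMP list), and between *Uaca* and *Tle3*, a corepressor, inside *Gm33699* (299 and 180). The highest cAMP scores after the ribosomal RNA peak lay between *Ywhaz* and *Zfp706* (352, and 126 in the vehicle list), between the zinc finger genes *Zbtb10* and *Zfp704* (344 and 225) and between *Cracr2a* and *Prmt8* (304 and 195), which is 9.54 and 5.22 kb from their ends. A peak between *Plcb1* and *Plcb4*, 2 phospholipase C genes, inside the antisense RNA *9630028H03Rik*, scored 216 for vehicle and 237 for cAMP and held 3 copies.

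Other highest-scoring shared peaks in the vehicle list lay between *Sash1* and *Samd5* (346, cAMP 120), between *Mrps22* and *Prr23a1* (342, cAMP 119), between *Tmx1* and *Frmd6* inside *Gm40437* (325, cAMP 110) and between *Thap1* and *Zfp703* inside *Gm31983* (266, cAMP 110). For cAMP they lay between *Ctnna3* and *Reep3*, as above, between *Sash1* and *Samd5* near *Samd5* (279, vehicle 124) and between *Mmadhc* and *Rnd3* (248, vehicle 135). Each held at least 1 copy of the consensus.

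Without an overlap, remote vehicle peaks reached 243 and remote cAMP peaks 207. A peak that is absent from a list was not called there, which does not show that the site was free. The vehicle peaks were led by those between *Cntnap2* and *Cul1* (243, 2 copies), between *Adamts3* and *Cox18* (202) and between *Mast4* and *Srek1* (198). The next lay at chr5:75256157-75256712 between *Pdgfra*, the PDGF receptor of Leydig progenitors, and *Kit*, the receptor of stem cell factor (195, 1 copy, 58.2 kb from *Pdgfra*). A peak 174 kb after *Fgf9*, a growth factor of the developing testis, scored 181. Others lay between *Lrig1* and *Kbtbd8* (181), between *Map4k3* and *Tmem178* (151) and between *Tmpo* and *Nedd1* (151). Those between *Cdc42ep3* and *Rmdn2* (162) and between *Swap70* and *Sbf2* (146) held neither the consensus nor its 7-letter core.

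The cAMP peaks without an overlap were led by that between *Ywhaq*, a 14-3-3 protein, and *Gm10330* (207, 1 copy). A peak at chr17:14815903-14816457 followed, 122 kb from *Thbs2*, the matrix protein thrombospondin 2, and 2.34 kb from the end of *Wdr27*, which scored 164 and held TGANTCA but no consensus. Next came those between *Ccdc91* and *Far2* (137), inside *Lncpint* (137) and between *Klf14* and *Mkln1* (123). The peak between *Ly86* and *Rreb1* (123) held no consensus but the 7-letter core and TGACGTCA. A peak 129 kb from *Hand2*, a bHLH factor, scored 122. Between *Fos*, a subunit of AP-1, and *Jdp2*, a repressor that pairs with AP-1 subunits, a peak inside *Gm32296* scored 112 and held 1 copy. Peaks between *Rdh14* and *Kcns3* (117) and between *Mpp7* and *Wac* (113) held no consensus. Of the 10 highest without an overlap, the consensus was thus missing in 2 vehicle and 4 cAMP peaks. Among all peaks without an overlap, it was held by 65.3% of the remote and 76.9% of the other vehicle peaks. For cAMP these shares were 39.7% and 70.2%.

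The 5 farthest peaks of each list scored below the median of its remote peaks, the first vehicle peak by little. The farthest vehicle peaks lay 1537 kb from *Flrt2* (score 70.1, cAMP 82.0), 1504 kb from *Adgrl3* (59.6, cAMP 64.9), 1089 kb from *Nxph1* (53.6), 953 kb from *Reep3* (56.6) and 919 kb from *Dsel* (68.4). The first 2 held the consensus and had a cAMP overlap, and the other 3 had neither. The farthest cAMP peaks lay 2183 kb from *Aga* (55.9), 1970.3 kb from *Pcdh20* (51.7), 1746 kb from *Cdh20* (51.0), 1737 kb from *Olfm4* (50.4) and 1704 kb from *Cntnap5a* (58.8). Of these only that near *Cntnap5a* held the consensus, and none of the 5 overlapped a vehicle peak.

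Remote peaks were spread over many gaps between protein-coding genes. Of the 3786 gaps with room for a remote peak, 508 (13.4%) held a vehicle peak, 491 (13.0%) held a cAMP peak and 276 held both. Most of these gaps held a single peak of the list, 350 and 371 of them. Gaps with 2 or more held 410 of the remote vehicle peaks (53.9%) and 290 of the remote cAMP peaks (43.9%). In 21 gaps the vehicle list held 4 or more, and in 11 gaps the cAMP list did. Another peak of the same list lay within 20 kb of 18.6% of the remote vehicle peaks, beside 32.1% of the others (difference -13.6, -16.5 to -10.4), and of 9.68% of the remote cAMP peaks, beside 22.7% (difference -13.0, -15.5 to -10.1). Remote peaks thus had a neighbour within 20 kb less often than other peaks.

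The fullest gap was the 905 kb between *Med13l*, a subunit of the Mediator kinase module, and *Tbx3*, a T-box factor. It held 7 vehicle peaks, scored from 55.0 to 212, and 6 cAMP peaks, scored from 50.8 to 105, and 3 of them were shared. The consensus was in all 7 vehicle peaks and in 5 of the 6 cAMP peaks. The strongest, at chr5:119220241-119220883, lay near the middle of the gap at 455.1 kb from *Med13l*, and scored 212 in the vehicle and 105 in the cAMP list. Windows of 60 bases at the copy nearest to the centre of each vehicle peak, in order along the chromosome, show the variety of the copies, which are in capitals. In the first window a pair of copies overlaps.
Med13l to Tbx3, chr5:118816005-118816064, minus strand: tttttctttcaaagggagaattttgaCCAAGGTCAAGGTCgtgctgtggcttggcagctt
Med13l to Tbx3, chr5:119208045-119208104, minus strand: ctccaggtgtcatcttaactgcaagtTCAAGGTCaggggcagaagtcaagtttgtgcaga
Med13l to Tbx3, chr5:119220540-119220599, minus strand: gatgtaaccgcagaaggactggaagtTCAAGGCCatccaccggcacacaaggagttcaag
Med13l to Tbx3, chr5:119232647-119232706, minus strand: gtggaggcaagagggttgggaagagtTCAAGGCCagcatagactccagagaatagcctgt
Med13l to Tbx3, chr5:119325866-119325925, minus strand: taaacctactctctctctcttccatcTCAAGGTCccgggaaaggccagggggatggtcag
Med13l to Tbx3, chr5:119338932-119338991, minus strand: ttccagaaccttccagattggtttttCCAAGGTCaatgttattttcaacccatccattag
Med13l to Tbx3, chr5:119575108-119575167, plus strand: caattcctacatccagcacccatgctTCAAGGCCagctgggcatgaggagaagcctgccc

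Several gaps that were rich in both lists had noncoding genes at the peaks. Between *Myc*, the proto-oncogene, and *Gsdmc*, all 5 vehicle peaks (54.7 to 137) and all 3 cAMP peaks (50.7 to 60.03) lay inside *Pvt1*, a long noncoding RNA next to *Myc*, and 2 sites were shared. Between *Klf14*, a Krüppel-like factor, and *Mkln1*, all 3 vehicle peaks and 4 of the 5 cAMP peaks lay inside *Lncpint*, a long noncoding RNA, and the strongest shared site scored 239 in the vehicle and 161 in the cAMP list. All 8 held the consensus. Between *Rps24* and *Zmiz1*, a coregulator of nuclear receptors, each list held 6 peaks and 3 sites were shared, with scores up to 119 and 159 inside *Zmiz1os1*. Between *Irf2bp2* and *Tomm20* each list held 5 peaks and 4 sites were shared. There the vehicle score was higher at 1 shared site (223 against 139.6) and the cAMP score at 3 (64.8 against 67.6, 50.5 against 145 and 88.3 against 186.5), the last 3 inside *Gm31718*.

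Between *Sash1* and *Samd5*, all 4 cAMP peaks matched 4 of the 6 vehicle peaks. The order of the scores differed between the ends of the gap. Near *Sash1* the vehicle score was 346 and the cAMP score 120, and near *Samd5* they were 124 and 279. Between *Dysf* and *Cyp26b1*, the enzyme that breaks down retinoic acid, 3 of 4 vehicle peaks (88.2 to 136) were shared with the 3 cAMP peaks (104 to 145), and each of the 7 held 1 copy. Between *Smad3* and *Smad6*, 195 kb apart, 4 vehicle and 3 cAMP peaks all held the consensus. Between *Nmbr* and *Cited2*, a coactivator that acts with Ad4BP/SF-1 in adrenal development, 4 vehicle and 3 cAMP peaks had 1 shared site (116 and 115).

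**Figure D5:**
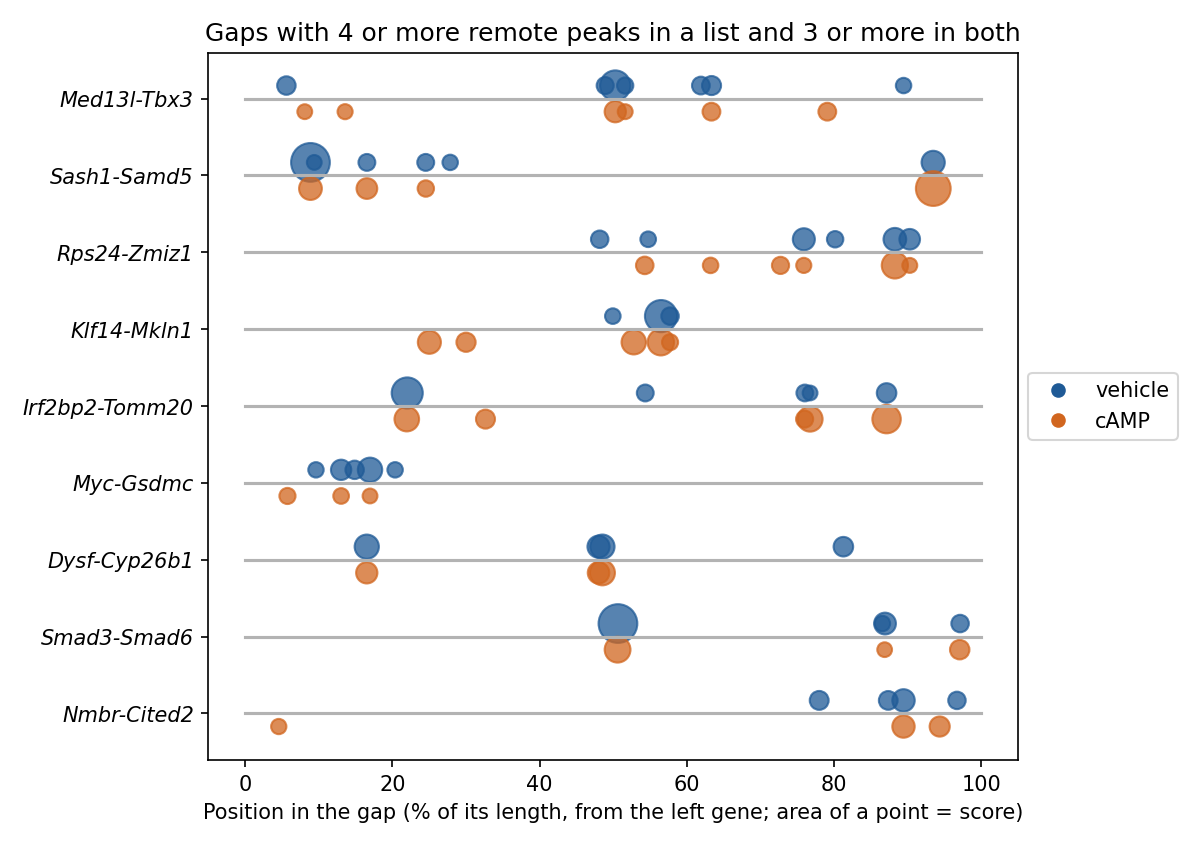
Position of remote peaks in the 9 gaps that held 4 or more of them in a list and 3 or more in both, as % of the length of the gap from the gene on the left. Vehicle peaks are blue above the line, cAMP peaks orange below it, and the area of a point is proportional to the score. Shared sites stand above each other, as at the left end of *Sash1* to *Samd5*, where the vehicle point is the larger, and at its right end, where the cAMP point is.

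Some gaps were rich in 1 list alone. Between *Mn1*, a transcriptional coregulator, and *Gm26897* the vehicle list held 5 peaks (65.95 to 118), all with the consensus, and the cAMP list 0. Between *Pabpc6* and *Qk*, an RNA-binding protein, it held 5 (50.1 to 75.2), of which 2 had the consensus, and the cAMP list again 0. Between *Ccdc71l* and *Nampt*, an enzyme of NAD synthesis, the cAMP list held 4 peaks (62.8 to 101), all with the consensus and none shared, and the vehicle list held 1 other peak. Of the 4 cAMP peaks between *Vrk1* and *3110018I06Rik* (50.9 to 90.3) none held the consensus, though 1 was shared with a vehicle peak (91.6). Of the 4 between *Adgrl2* and *Adgrl4* (50.8 to 56.9), a gap of 2447 kb, 1 held it. These gaps were picked out for their counts, so the difference between the lists in them is a description.

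The other gaps with 4 or more peaks of a list were mostly vehicle gaps. They included those between *Cstad* and *1700001O22Rik* (6 vehicle and 1 cAMP), *Kazn* and *Prdm2* (5 and 2), *Uaca* and *Tle3* (5 and 2) and *Serp2* and *Lacc1* (5 and 1). With 4 vehicle peaks there were *Glul* to *Zfp648*, *Pgrmc2* to *Jade1*, *Slc7a11* to *Noct*, *Klf4* to *Actl7b*, *Tmx1* to *Frmd6* and *Zfp608* to *Gramd3*, with 1 or 2 cAMP peaks each. With 4 cAMP peaks there were *Plekhb2* to *Hs6st1*, *Zfp64* to *Gm11011* and *Stt3b* to *Gadl1*, with 1 or 2 vehicle peaks each.

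The centre of 159 remote vehicle peaks, or 20.9% (18.1% to 24.0%), lay in an annotated gene other than a protein-coding one, beside 9.30% of all vehicle peaks. Of the cAMP peaks 119 did, or 18% (15.1% to 21.1%), beside 8.80% of all cAMP peaks. Noncoding genes that overlap a coding gene body count for the other peaks, so the nearest comparison is with intergenic peaks at 1 to 50 kb, where the shares were 13.2% and 12.3%. The differences were 7.68 (4.29 to 11.2) and 5.70 points (2.10 to 9.41). Of all remote bases of the genome 11.1% lay in such a gene. Most were lincRNAs, with 125 vehicle and 91 cAMP peaks, followed by processed transcripts and antisense RNAs, and a few were pseudogenes. A noncoding start lay within 1 kb of the centre in 35 vehicle and 26 cAMP peaks. No share of other peaks is set beside these counts, so they do not show whether remote peaks differ in this. The peaks fell in 141 and 116 different noncoding genes, and besides *Pvt1*, *9330198N18Rik*, *Zmiz1os1*, *Lncpint* and *Gm31718*, no gene held more than 2 of a list. Near *Sox9* the RNA *2610035D17Rik* held 2 vehicle peaks (65.6 and 92.0).

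Lists of genes were then set beside the flanks. Of the 5816 protein-coding genes with remote sequence next to them, 16.5% flanked a remote vehicle peak and 15.9% a remote cAMP peak. A gene with more remote sequence beside it has more room for peaks, and the median was 117 kb. Gonadal transcription factors flanked remote peaks in 10 of 18 cases (55.6%) in each list, but had a median of 610.4 kb beside them. Per Mb they had 1.23 vehicle and 1.11 cAMP peaks, beside 0.705 and 0.613 over all 5816 genes. Genes of Leydig cell signalling flanked them in 10 of 16 cases (62.5%) in the vehicle and 7 (43.8%) in the cAMP list, with a median of 315 kb and with 2.18 and 1.55 peaks per Mb. Developmental transcription factor families gave 34 (28.6%) and 36 (30.3%) of 119 genes, a median of 269 kb, and 0.994 and 0.929 peaks per Mb. Nuclear receptors gave 5 (21.7%) and 8 (34.8%) of 23, a median of 470.3 kb, and 0.365 and 0.548 peaks per Mb, which is below the value over all genes. These are counts over few genes, given as a description.

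Among gonadal transcription factors, the site 209 kb after *Sox9*, the factor of Sertoli cell fate, scored 181 in the vehicle and 74.7 in the cAMP list, and the vehicle list held 2 more beyond it (65.6 and 92.0). A site 259.6 kb from the body of *Maf*, a bZIP factor, scored 119 and 223 and held 2 copies. A site 427 kb from *Nr2f2*, which encodes COUP-TFII of the Leydig lineage, scored 107 and 155. The site 436 kb after *Osr1*, a zinc finger factor of the early gonad, scored 137 and 92.1. *Gata6*, a zinc finger factor of steroidogenic cells, had 2 shared sites, of which the stronger (166 and 134) held no consensus. The single peak beside *Gata4*, its close relative, was weak (51.0, vehicle list, no consensus). For *Tcf21*, *Zfpm2* and *Nr2f1* no site was shared, and the scores ran from 51.4 to 57.7.

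Among genes of Leydig cell signalling, *Fgf9* had 3 vehicle and 2 cAMP peaks with 1 shared site (70.3 and 67.9), and *Kitl*, which encodes stem cell factor, had a shared site 108 kb from it (69.0 and 78.2). A shared site 55.3 kb from *Fgfr2*, a receptor of FGF9, scored 97.6 and 56.8. *Thbs2* had a shared site (58.2 and 84.1) beside the unshared cAMP peak of score 164. Beside *Jag1*, a Notch ligand, the lists had different peaks (121 in the vehicle and 58.8 in the cAMP list). The peak between *Pdgfra* and *Kit* counts for both genes. Beside *Pdgfa* (53.95 and 69.9), *Prlr*, the prolactin receptor (78.9), and *Vcam1* (56.9) there were vehicle peaks alone. The cAMP list alone had weak peaks beside *Lhcgr*, the receptor of luteinizing hormone (54.5, no consensus), and *Rxfp2*, the receptor of INSL3 (62.4, 1 copy).

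Among nuclear receptors other than *Ppara* and *Nr2f2*, the flanking peaks scored low and none was shared. Vehicle peaks lay beside *Nr4a3* (50.5) and *Nr5a2*, the closest relative of *Nr5a1* (59.2). cAMP peaks lay beside *Hnf4g* (51.4 and 53.7), *Rxra* (52.4), *Nr2f1* (56.2), *Esrrg* (51.7), *Nr3c1*, the glucocorticoid receptor (54.9), and *Nr4a2* (58.1). Beside *Ppara* the vehicle list held an unshared peak as well (110). Among developmental factors the strongest vehicle peaks lay beside *Tshz3* (254, cAMP 83.1), *Klf14* (239), *Tbx3* (212), *Klf12* (211, cAMP 80.9, no consensus) and *Foxa2* (182, cAMP 72.0, 3 copies). The strongest cAMP peaks lay beside *Klf14* (161), *Gata6* (134) and *Pax3* (125, vehicle 83.7).

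Few genes of steroid and cholesterol synthesis had room for a remote peak. Of 20 steroidogenic genes 5 did, and 1 flanked a remote vehicle peak, *Fdx1*, the ferredoxin that passes electrons to Cyp11a1 (59.0, 61.2 kb away, 2 copies). Of 20 cholesterogenic genes 3 did, and *Sqle*, squalene epoxidase, flanked 2 vehicle peaks (62.8 and 82.3, 118 and 109 kb away). No gene of either list flanked a remote cAMP peak. Among 23 genes of cAMP signalling, 3 flanked a vehicle peak (13.0%) and 4 a cAMP peak (17.4%), beside the 16.5% and 15.9% over all genes. These genes had little remote sequence beside them, with a median of 70.3 kb, and 1.58 peaks per Mb in each list, from 4 peaks of each. *Prkar2b*, a regulatory subunit of protein kinase A, had a shared site (59.9 and 50.6) and a vehicle peak without an overlap or consensus (107). Shared sites also lay beside *Akap1* (83.2 and 64.1) and *Akap13* (70.7 and 59.5), which anchor the kinase. *Adcy9*, an adenylyl cyclase, had a cAMP peak (53.1).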

How the data were processed

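The authors mapped reads to mm10 with Bowtie (0.12.8 per the submitters' processing notes, which also name FastQC 0.11.5, while the methods name another release), with at most 3 mismatches. Reads that mapped to more than 1 position were dropped, and MACS was run without model building. Whether the input served as its control is not given in the sources used here. The deposited lists give each peak's position and the authors' MACS score, 10 times the negative log10 of the p-value. The methods state a laxer p-value threshold than the lowest deposited score, 50.0 in each list. No read numbers are given, so depth is unknown.

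Peaks were annotated with GENCODE M21, and sequences were read from GRCm38.p6 (mm10) with pysam 0.24.0 and samtools 1.23.1. Python 3.11.15 was used for tables (pandas 2.3.3, numpy 2.4.6), with intervals from scipy 1.17.1 and statsmodels 0.14.6 and plots from matplotlib 3.10.9. Overlap meant at least 1 shared bp. Distance was measured from the peak's centre, with coordinates counted from 1. Shares have exact Clopper-Pearson intervals and differences of 2 shares Newcombe intervals at the 95% level. Comparison windows had the width of the peak, lay 5 kb to either side of it, overlapped no peak of either list and held no unknown base. Gaps are stretches between neighbouring protein-coding genes. The functions were tested on simulated data.

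The peaks and gene lists were chosen with earlier results of these data known. Genes named are the flanks, and any noncoding gene, of the 10 highest-scoring remote peaks of each list, the 10 highest without an overlap, the 5 farthest, those at the 50 kb limit, gaps with 4 or more peaks of a list, and list genes that flank a remote peak. Outside this rule, *Barx2*, *Arhgap32*, *Zfp536*, *Rwdd4a*, *Ing2*, *Fam43a*, *Xxylt1*, *Pvt1*, *Zmiz1os1*, *Gm31718* and *2610035D17Rik* were chosen once values were known. Some genes under the rule are given by count alone or are not reported here.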

Additional observations from a re-analysis of the deposited data

How the results depend on the processing

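No paired analysis was possible because each condition had 1 library, so there was no library to leave out and the spread between replicates is unknown. Depth is unknown too, so a peak missing from a list limits what an overlap shows. Values are given in the order vehicle, cAMP, and a higher lowest score was applied to both lists. Leaving out peaks wider than 1500 bp or with over 50% repeat, and computing the differences of shares under other settings, were chosen after seeing the data.

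Requiring the whole peak to lie outside protein-coding genes kept the same 760 and 661 peaks, so it could not change a value. The consensus share of remote peaks stayed below that of the other peaks under each other limit, set of starts and lowest score. It also did so without wide or repeat-rich peaks. The difference in this share lay between -14.7 and -6.58 points for vehicle and between -30.6 and -7.59 for cAMP. No interval included 0. This difference was not computed for the 7-letter core or the central 200 bp. Within vehicle peaks of 75 to 100 alone it was -6.36 points (-13.9 to 0.0143). The overlap difference did not hold at stricter scores in both lists. It was -2.56 and -4.70 points with peaks of 75 and over, and turned to 2.11 and 1.02 with peaks of 100 and over. Its intervals then included 0. With the starts of all annotated genes the vehicle difference was -3.09 points (-9.32 to 3.67), which also included 0. The cause was not tested.

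With a limit of 25 kb the remote share became 19.2% and 22.1%, and in the cAMP list the consensus share 59.8% and the share above the median score 41.0%. With 100 kb the remote share became 7.64% and 10.6% and the consensus share 66.8% and 50.2%, and in the cAMP list the overlap 33.1% and the share above the median 32.2%. With the starts of all genes the remote share became 3.71% and 5.47%, the consensus share 74.1% and 48.2%, and the noncoding share 8.02% and 6.82%, by construction fewer, and the cAMP overlap 33.2%. With peaks of 75 and over the remote share became 12.2% and 12.3% and the consensus share 78.5% and 79.9%, and in the cAMP list the overlap 57.3%, the share above the median 49.7% and the noncoding share 21.6%. With peaks of 100 and over these became 11.4% and 11.8%, 79.2% and 85.3%, overlap 40.5% and 64.2%, and in the cAMP list 44.0% above the median and 25.7% noncoding. The higher remote share of the cAMP list was thus not seen among peaks of 75 and over. The 7-letter core gave 75.5% and 60.2%, the central 200 bp 64.5% and 49.5%, and a noncoding start within 1 kb 4.61% and 3.93%. The other 91 values stayed within the interval of the reported value or, for differences, on the same side of 0. They include the values of the whole-peak rule, which kept the same peaks.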
